A study of Mus musculus with 6 samples.

Results

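The genes described here encode 9 G protein-coupled receptors whose known ligands are lysophospholipids or protons. They were chosen by gene symbol, with earlier results of these data known: Gpr132, linked to LPC and to protons; Gpr65 and Gpr4, which sense protons; P2ry10, Gpr174 and Gpr34, which respond to lysophosphatidylserine; and Lpar5, Lpar2 and Lpar6, which respond to lysophosphatidic acid. All 9 were found among the 18046 genes listed in every library. RNA was sequenced from naive CD4+ T cells of the spleen of C57BL/6 mice aged 3 weeks, stimulated in culture through CD3 and CD28 for 3 days in a medium that polarizes cells towards the T helper 1 (Th1) fate. The LPC group (n = 3) received 20 µM LPC during this time, and the vehicle group (n = 3) received the carrier alone. The labels neither spell out LPC, which in lipid biology usually means lysophosphatidylcholine, nor name the carrier. Nothing in them tells separate animals or cultures apart within a group. The p-values below therefore speak only of the spread among these libraries, which may be technical. The comparison addresses how LPC altered transcript levels during Th1 differentiation.

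A lysophospholipid is a membrane phospholipid that has lost a fatty acid chain, which makes it soluble enough to leave the membrane and act as a signal between cells. The secreted enzyme autotaxin turns lysophosphatidylcholine into lysophosphatidic acid, so LPC is both a candidate ligand and a source of another ligand in this family. T cells that divide on glycolysis export lactate with protons and acidify their surroundings, which the proton-sensing receptors of the family read. Receptors that couple to Gs raise cyclic AMP, which restrains T cell receptor signals, and others act through Gi. Whether LPC itself binds Gpr132 is disputed in the field.

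Values are FPKM, fragments scaled by transcript length and by the number mapped in the library, which can be compared between genes because they are divided by length. The test was limma on log2(FPKM + 1), run over the 10138 genes with an FPKM of 1 or more in at least 3 libraries. Every log2 change below is LPC minus vehicle on that scale, which understates the change of genes with low values, and a call means an adjusted p under 0.05. The FPKM sums ran from 562046 to 641026 in LPC libraries and from 556561 to 588274 in vehicle libraries, at an estimated depth of 18.75 to 19.25 M reads per library. A first principal component with 58.4% of the variance had LPC libraries at 3.03 to 21.10 and vehicle libraries at -15.76 to -8.43. LPC replicate 3 was at the far end of that range and listed the fewest genes at 0 (17.9%, against 19.4% to 20.2% in the others). The summed level of 12 T cell markers was 2650 to 2800 FPKM with LPC and 2720 to 2810 FPKM with vehicle. By limma 0 of these 12 were called changed, and 2 had an unadjusted p under 0.05. Markers of B cells summed to at most 2.99 FPKM, of myeloid cells to 11.3 and of mast cells, basophils and platelets to 3.58 in any library. Dendritic cell markers summed to 103 to 143 FPKM with LPC and 83.1 to 102 FPKM with vehicle, nearly all of it Batf3, which activated T cells also express, and 5 of the 7 markers were under 1 FPKM in all libraries. Batf3 was called higher (log2 change 0.45, limma adjusted p = 0.0347) and Zbtb46, the other dendritic marker tested, lower (-0.68, adjusted p = 0.00139). Zbtb46 stayed called in every fit that left out a library. The Batf3 call was lost without LPC replicate 1 (0.136), LPC replicate 3 (0.0742), vehicle replicate 1 (0.0681) or vehicle replicate 2 (0.135). It was also lost after quantile normalization (0.0604), after median centring (0.0697) and with no filter on low values (0.147). Natural killer and innate lymphoid markers summed to 6.85 to 7.93 FPKM with LPC and 8.48 to 10.9 FPKM with vehicle, and Eomes, the 1 tested, was called lower (-0.49, adjusted p = 0.0146), while Ncr1 and Klra8 were at 0 in every library. Of the B cell markers Ebf1 was called higher (0.42, adjusted p = 0.0362). Among fits that leave out a library, Ebf1 stayed called only without LPC replicate 3, with adjusted p from 0.0552 to 0.129 in the others. With no filter on low values neither Ebf1 (0.128) nor Eomes (0.0828) was called. The Eomes call was also lost without LPC replicate 1 (0.0566), vehicle replicate 2 (0.055) or vehicle replicate 3 (0.0539). Both CD8 markers together summed to 10.9 to 12.8 FPKM with LPC and 13.5 to 14.5 FPKM with vehicle, nearly all of it Cd8b1, which did not pass (-0.22, adjusted p = 0.142). The part of these cells in the receptor levels was not tested.

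The members called lower with LPC were receptors for lysophosphatidylserine. Lpar6, a lysophosphatidic acid receptor too low to be tested, fell by 34.6% in mean FPKM. Its LPC libraries all lay below its vehicle libraries. Gpr4 and Lpar2, also too low, had lower means with LPC and overlapping groups. P2ry10 fell by 25.0% and Gpr174 fell by 27.9% in mean FPKM, and all 3 LPC libraries lay below all 3 vehicle libraries for both. Gpr132 and Gpr65, by far the most abundant of the 9, did not pass the test, and neither did Lpar5. Of the 6 members that were tested, 3 were called lower (P2ry10, Gpr174 and Gpr34) and 0 higher. By comparison 13.7% of all 10138 tested genes were called, 7.91% lower and 5.82% higher. At an unadjusted p under 0.05 by limma, 3 members were lower and 0 higher, where 30.1% of all tested genes reached that level, 17.9% lower and 12.2% higher. Gpr34 reached the test only through its vehicle libraries, so its call is no support. Gpr4, Lpar2 and Lpar6 were under the level at which genes were tested. In a bulk sample, fewer cells of a type and less RNA per cell cannot be told apart.

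**Figure D1:**
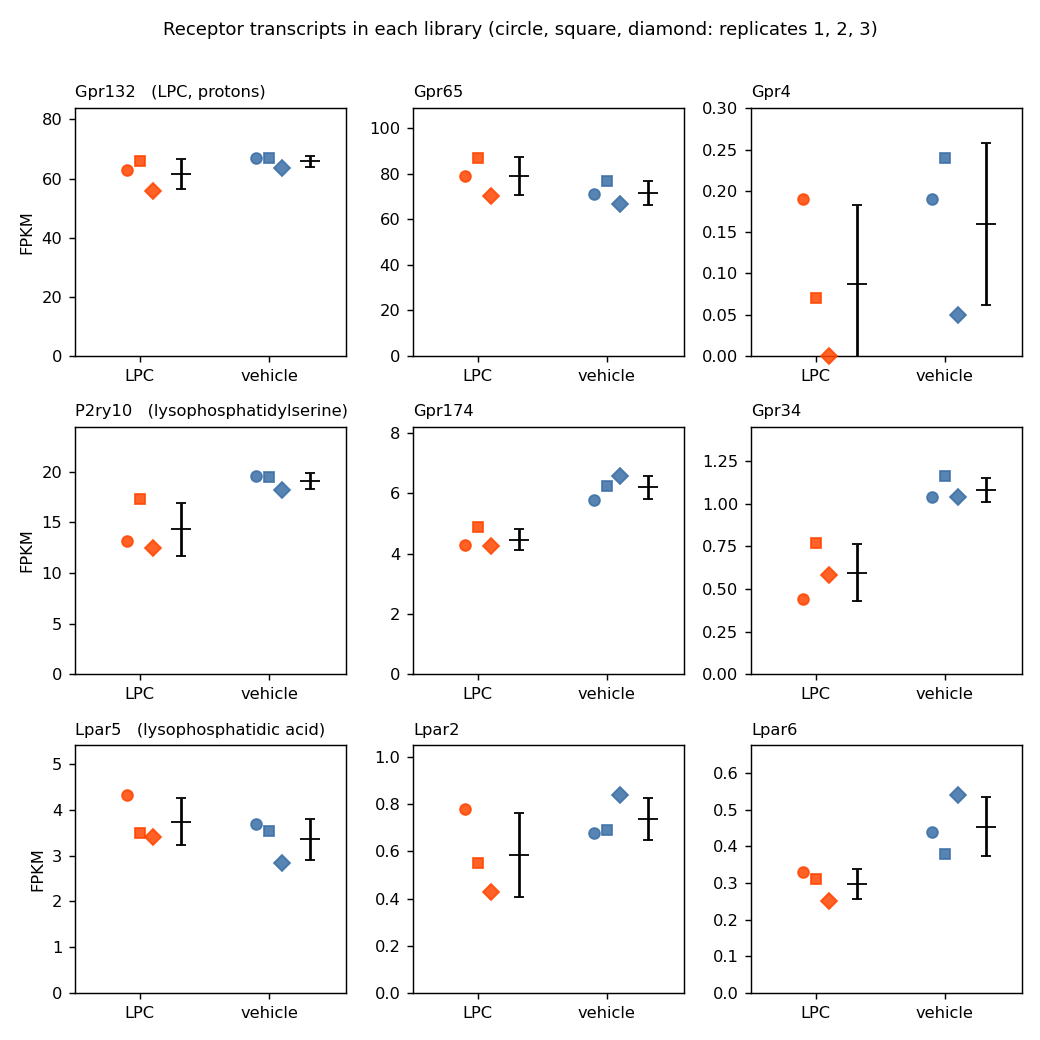
FPKM of each of the 9 receptors in each library (y axes start at 0 and differ between panels), LPC left and vehicle right, with circle, square and diamond for replicates 1, 2 and 3 and bars for the mean ± SD (n = 3, the bar of Gpr4 is clipped at 0). P2ry10, Gpr174, Gpr34 and Lpar6 have every LPC library below every vehicle library, and in the other 5 panels the groups overlap.

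The lysophosphatidylserine receptors sit on the X chromosome, P2ry10 and Gpr174 as neighbours. P2ry10 spans chrX:107088492-107104974 and Gpr174 chrX:107255878-107296771 (GRCm38, plus strand), with 150904 bases between the end of the first and the start of the second. The 250 bases upstream of a RefSeq start of each are shown because both transcripts fell with LPC. These windows are chrX:107088242-107088491 for P2ry10 and chrX:107284096-107284345 for Gpr174 (GRCm38.p6, plus strand). Capitals mark a match to a motif searched on both strands.
P2ry10: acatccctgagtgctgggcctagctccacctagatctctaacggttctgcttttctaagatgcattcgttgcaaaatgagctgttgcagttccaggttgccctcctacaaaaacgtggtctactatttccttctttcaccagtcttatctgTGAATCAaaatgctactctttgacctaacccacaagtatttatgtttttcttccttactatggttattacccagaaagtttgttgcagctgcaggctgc
Gpr174: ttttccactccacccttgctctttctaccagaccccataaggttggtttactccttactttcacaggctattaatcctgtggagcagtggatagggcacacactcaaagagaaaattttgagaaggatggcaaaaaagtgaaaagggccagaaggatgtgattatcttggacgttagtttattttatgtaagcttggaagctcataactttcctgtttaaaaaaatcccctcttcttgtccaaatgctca
The match in P2ry10 is TGAATCA, a form of the AP-1 motif TGANTCA, 99 bases before the start, and 6.75% of 32851 RefSeq promoter windows of this length hold that motif. In the Gpr174 window none of the 8 motifs searched was present. Beside the AP-1 motif these were the short cyclic AMP response site TGACG and its full form TGACGTCA, the E-box CACGTG, the RUNX motif TGTGGT, the GAS motif TTCNNNGAA for STAT factors, the ETS motif CCGGAAG and the TATA motif TATAAA. P2ry10 has another listed start at which the upstream window holds TGACG, found in 17.8% of windows, and 2 copies of TGTGGT, found in 4614 of the 32851. The Gpr174 start used is the one in the RefSeq table, which lies inside the gene's full span. A match is a description of letters and not a bound site.

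P2ry10 is a receptor for lysophosphatidylserine that is known from lymphocytes, where it affects migration and cytokine production. It was listed at 13.14, 17.32 and 12.48 FPKM in LPC replicates 1, 2 and 3, and at 19.54, 19.52 and 18.18 FPKM in vehicle replicates 1, 2 and 3. Every LPC library was below every vehicle library, with LPC replicate 2 the nearest to the vehicle libraries. The means were 14.3 ± 2.62 FPKM with LPC and 19.1 ± 0.779 FPKM with vehicle (SD, n = 3 each), a log2 change of -0.40 (SE 0.11, 95% interval -0.65 to -0.16, limma adjusted p = 0.0335). The call did not hold without LPC replicate 1 (adjusted p = 0.121), LPC replicate 3 (0.072), vehicle replicate 1 (0.121) or vehicle replicate 2 (0.0944), nor with no filter on low values (0.122). The log2 change stayed between -0.54 and -0.32 when each library was left out in turn.

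Gpr174 couples to Gs, raises cyclic AMP and is known in mice as a brake on T cell activation and on regulatory T cells. Its levels were 4.28, 4.88 and 4.24 FPKM in LPC replicates 1, 2 and 3 and 5.79, 6.23 and 6.56 FPKM in vehicle replicates 1, 2 and 3. The groups did not overlap, and the gap between the highest LPC and the lowest vehicle library was wider than the range within either group. Means were 4.47 ± 0.359 FPKM with LPC and 6.19 ± 0.386 FPKM with vehicle (SD, n = 3 each), a log2 change of -0.40 (SE 0.10, interval -0.61 to -0.18, limma adjusted p = 0.0194). Without LPC replicate 1 the adjusted p was 0.0708, without vehicle replicates 1, 2 or 3 it became 0.054, 0.0722 and 0.0692, and with no filter on low values it was 0.0728, so these settings end the call. Over the 6 fits that leave out a library, the log2 change ranged from -0.45 to -0.36.

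Gpr34 couples to Gi and is best known as a lysophosphatidylserine receptor of microglia, mast cells and other myeloid cells. It was near the detection floor of the comparison, at 0.44, 0.77 and 0.58 FPKM in LPC replicates 1, 2 and 3 and 1.04, 1.16 and 1.04 FPKM in vehicle replicates 1, 2 and 3. Only the vehicle libraries reached 1 FPKM, so it entered the test through the group where it was higher. The log2 change was -0.39 (SE 0.10, interval -0.61 to -0.16, limma adjusted p = 0.0278), and with a pseudocount of 0.1 in place of 1 it was -0.79. The call was lost without LPC replicate 1 (0.103), LPC replicate 3 (0.0512), vehicle replicate 1 (0.0774) or vehicle replicate 2 (0.0983), with no filter (0.058) and after quantile normalization (0.092). Gpr34 lies at chrX:13622650-13640859 (plus strand) inside Cask on the minus strand. The exons of these genes share 0 bases in GENCODE M21, and Cask was at 0.343 ± 0.0924 FPKM with LPC and 0.35 ± 0.0624 FPKM with vehicle (SD, n = 3 each).

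The transcripts of these 3 receptors are poor in G and C, at 36.9% for P2ry10, 36.6% for Gpr174 and 36.4% for Gpr34, against a median of 50.4% over tested genes. Low GC was not particular to them. Lpar6 was at 36.4% and Gpr65, which had a higher mean with LPC, at 42.3%. Gpr132 (54.0%), Gpr4 (54.1%), Lpar2 (51.3%) and Lpar5 (59.0%) were above that median. Across 10014 tested genes the log2 change went up with GC share (Pearson's r = 0.26) and down with log2 length (r = -0.29), as a description over genes that are not independent. Removing both trends from every library left P2ry10 and Gpr174 called, with smaller changes. Gpr34 was called as well, but it entered the test only through its vehicle libraries, so its call is no support. In that setting 2337 of 10014 tested genes were called, against 1392 of 10138 as reported, so a call there says less. With the trends removed Gpr174 had a log2 change of -0.24 (limma adjusted p = 0.0264), P2ry10 -0.29 (0.0402) and Gpr34 -0.30 (0.0414). The part of these trends in the changes was not tested. Over the X chromosome as a whole, 22 of 303 tested genes were called lower (7.26%) and 6 higher (1.98%), against 7.91% lower and 5.82% higher of all tested genes.

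Within 500000 bases of this pair lie 9 other protein-coding genes, of which 5 were listed and 3 tested. Itm2a, which encodes a membrane protein of developing and activated T cells, lies just beyond Gpr174 at chrX:107397195-107403360. It fell to 26.6 ± 1.64 FPKM with LPC, against 39.5 ± 4.58 FPKM with vehicle (SD, n = 3 each), a log2 change of -0.55 (limma adjusted p = 0.00425), and it stayed called in all 6 fits that leave out a library. Cysltr1, a leukotriene receptor gene on the other side of P2ry10, had a log2 change of 0.11 and did not pass (adjusted p = 0.472), nor did 2610002M06Rik (-0.17, adjusted p = 0.278). Lpar4, a lysophosphatidic acid receptor gene of this stretch, was at 0.01 FPKM or less in every library. Itm2a and its neighbours were named for their position after the receptor values had been seen.

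Gpr132 and Gpr65, both on chromosome 12, carried most of the family's transcripts. The windows of 250 bases upstream of a RefSeq start of each are shown for comparison with those of P2ry10 and Gpr174. They are chr12:112860917-112861166 for Gpr132 (minus strand) and chr12:98268385-98268634 for Gpr65 (plus strand, both GRCm38.p6).
Gpr132: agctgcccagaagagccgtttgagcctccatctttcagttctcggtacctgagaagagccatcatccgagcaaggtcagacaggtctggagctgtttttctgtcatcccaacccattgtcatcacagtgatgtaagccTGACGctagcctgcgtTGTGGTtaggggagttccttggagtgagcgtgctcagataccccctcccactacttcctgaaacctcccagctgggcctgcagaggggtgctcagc
Gpr65: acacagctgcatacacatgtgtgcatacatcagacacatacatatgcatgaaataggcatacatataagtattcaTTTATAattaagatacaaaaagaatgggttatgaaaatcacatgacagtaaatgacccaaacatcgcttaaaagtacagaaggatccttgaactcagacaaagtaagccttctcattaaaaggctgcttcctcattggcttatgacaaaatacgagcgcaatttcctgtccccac
Gpr132 holds the short site TGACG 112 bases and the RUNX motif TGTGGT 96 bases before the start used. That start and its window lie inside the gene's full span, chr12:112850873-112868416. Gpr65 holds TTTATA, the reverse complement of TATAAA, 175 bases before its start, and 12.4% of windows hold that motif. The GC share of these windows was 55.6% for Gpr132 and 36.8% for Gpr65, against 43.2% for P2ry10, 40.4% for Gpr174 and a median of 52.4% over all windows.

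Gpr132 is the receptor that lipid biology links most closely to LPC, and it also responds to protons and oxidized fatty acids. It was listed at 62.92, 65.77 and 55.83 FPKM in LPC replicates 1, 2 and 3, and at 66.99, 66.82 and 63.71 FPKM in vehicle replicates 1, 2 and 3. LPC replicate 2 lay within the vehicle range, and LPC replicate 3 was the lowest library. The means were 61.5 ± 5.12 FPKM with LPC and 65.8 ± 1.85 FPKM with vehicle (SD, n = 3 each). The log2 change of -0.10 (SE 0.09) had a 95% interval of -0.29 to 0.09 and did not pass (limma adjusted p = 0.477). Leaving out each library in turn gave -0.15 to -0.03, and no such fit passed.

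Gpr65, also called TDAG8, couples to Gs and raises cyclic AMP when the surroundings turn acid. Its levels were 79.3, 87.08 and 70.5 FPKM in LPC replicates 1, 2 and 3 and 70.99, 76.93 and 66.65 FPKM in vehicle replicates 1, 2 and 3. LPC replicates 1 and 2 were above every vehicle library and LPC replicate 3 was inside their range. Means were 79.0 ± 8.30 FPKM with LPC and 71.5 ± 5.16 FPKM with vehicle (SD, n = 3 each), and the log2 change of 0.14 (SE 0.10, interval -0.07 to 0.35) did not pass (limma adjusted p = 0.362). Its range was 0.07 to 0.22 when each library was left out, and it was 0.22 (interval 0.02 to 0.41, adjusted p = 0.101) after the trends with GC and length were removed. A non-coding antisense gene, Gm47566, shares 511 exon bases with Gpr65 in GENCODE M21, and without stated strand information reads of the pair cannot be told apart.

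Gpr4, a proton sensor known from blood vessel endothelium, was at 0.19, 0.07 and 0 FPKM in LPC replicates 1, 2 and 3 and at 0.19, 0.24 and 0.05 FPKM in vehicle replicates 1, 2 and 3. These values overlapped and none reached the level at which genes were tested.

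**Figure D2:**
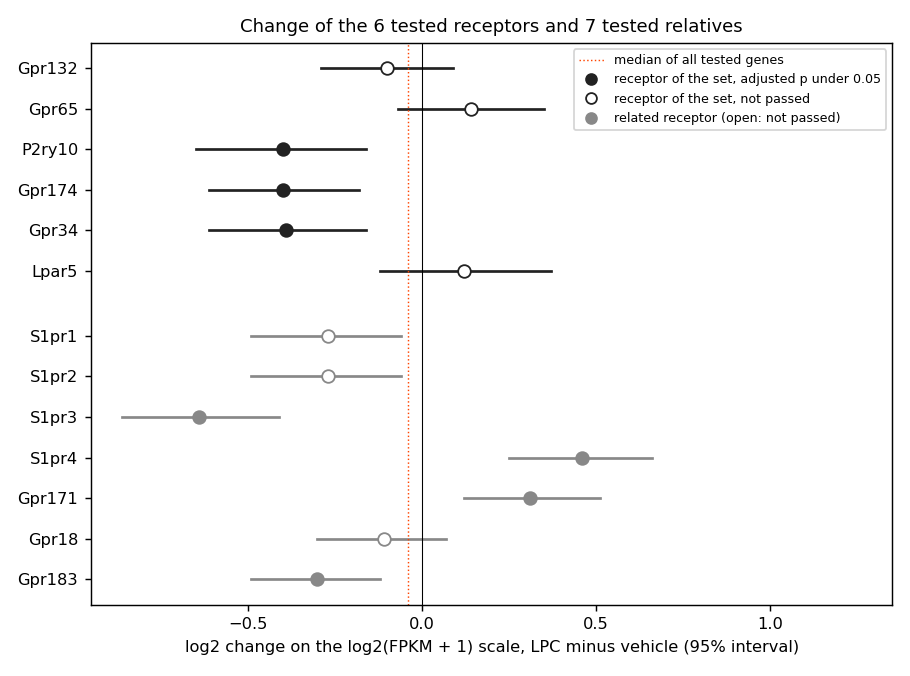
Log2 change on the log2(FPKM + 1) scale, LPC minus vehicle (x axis), with 95% interval, for the 6 tested receptors (black) and 7 tested relatives (grey), filled where the limma adjusted p is under 0.05, with the dotted line at the median of all tested genes (-0.04). P2ry10, Gpr174 and Gpr34 lie near -0.40 with intervals below 0, and the intervals of Gpr132, Gpr65 and Lpar5 cross 0.

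Gpr65 exceeded Gpr132 in every library, and by more with LPC. The ratio of their FPKM within a library was 1.26, 1.32 and 1.26 in LPC replicates 1, 2 and 3, and 1.06, 1.15 and 1.05 in vehicle replicates 1, 2 and 3. The ratio averaged 1.28 ± 0.0346 with LPC and 1.09 ± 0.0551 with vehicle (SD, n = 3 each), a difference of 0.24 in log2 ratio. The groups did not overlap, and the exact two-sided permutation test gave p = 0.10, the smallest p that 3 libraries against 3 allow. This ratio was chosen after the values of both genes had been seen, and neither gene passed on its own, so it is a description.

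Lpar5 was the only lysophosphatidic acid receptor of the 3 that reached the test. It is known to inhibit T cell receptor signalling in CD8+ T cells. It was listed at 4.33, 3.5 and 3.4 FPKM in LPC replicates 1, 2 and 3 and at 3.7, 3.53 and 2.85 FPKM in vehicle replicates 1, 2 and 3, with LPC replicate 1 above the rest and the other libraries mixed. Means were 3.74 ± 0.511 FPKM with LPC and 3.36 ± 0.45 FPKM with vehicle (SD, n = 3 each), and the log2 change was 0.12 (SE 0.11, interval -0.12 to 0.37, limma adjusted p = 0.496).

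Lpar2, which couples to several G proteins and is known to affect lymphocyte movement, was at 0.78, 0.55 and 0.43 FPKM in LPC replicates 1, 2 and 3 and 0.68, 0.69 and 0.84 FPKM in vehicle replicates 1, 2 and 3. The groups overlapped. Lpar6, a receptor known from hair growth in people, was at 0.33, 0.31 and 0.25 FPKM in LPC replicates 1, 2 and 3 and 0.44, 0.38 and 0.54 FPKM in vehicle replicates 1, 2 and 3. Every LPC library of Lpar6 was below every vehicle library, at levels under that of the tested genes. When genes were tested with no filter on low values, Lpar6 had a log2 change of -0.16 (limma adjusted p = 0.122), Lpar2 of -0.14 (0.426) and Gpr4 of -0.09 (0.56).

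Lpar6 is a gene of 1 exon at chr14:73237891-73240358 (plus strand) inside Rb1, the retinoblastoma tumour suppressor gene, which is read from the other strand. In GENCODE M21 the exons of the pair share 408 bases, so some reads assigned to Lpar6 may come from Rb1 where strand was not used, which the sources used here do not state. Rb1 fell in the same direction, to 15.1 ± 1.76 FPKM with LPC, against 20.7 ± 2.10 FPKM with vehicle (SD, n = 3 each), a log2 change of -0.43 (SE 0.11, limma adjusted p = 0.019). Its libraries stood at 14.66, 17.06 and 13.63 FPKM with LPC and at 18.72, 22.9 and 20.46 FPKM with vehicle, with no overlap. The Rb1 call did not hold without LPC replicate 1 (adjusted p = 0.071) or vehicle replicate 2 (0.0977), nor with no filter on low values (0.081).

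Counting the members below the test as well, 4 of the 9 receptors (P2ry10, Gpr174, Gpr34 and Lpar6) had all LPC libraries below all vehicle libraries. The same was true of 20.7% of tested genes and of 13.6% of all 18046 listed genes, and 34.5% of tested genes did not overlap in either direction. On the log2 scale the median change of all tested genes was -0.04 and the median size of a change was 0.15. A fall larger than that of Gpr34 (-0.39) was seen in 506 tested genes, on a scale that understates the change of a gene at so low a level.

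**Figure D3:**
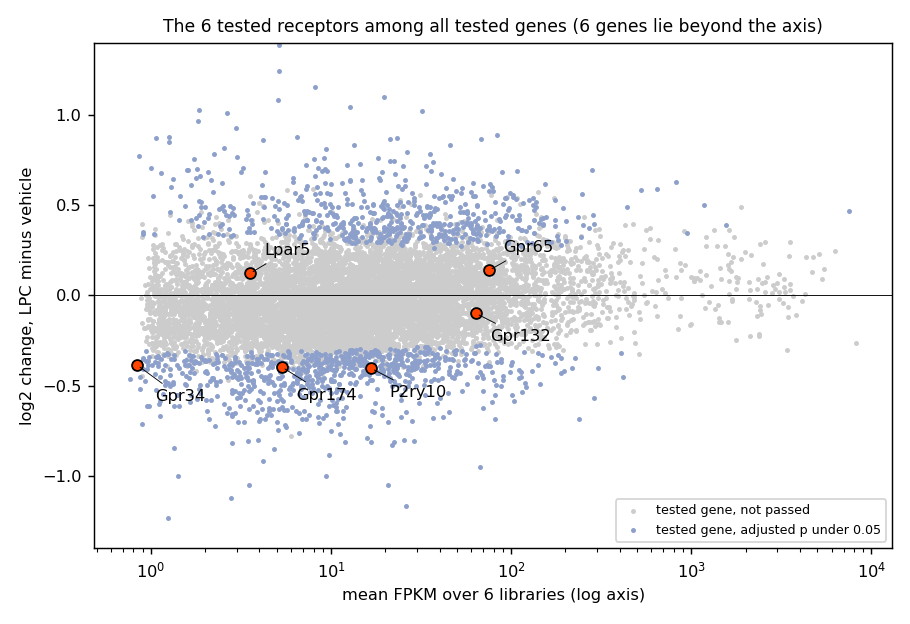
Log2 change, LPC minus vehicle, against the mean FPKM over 6 libraries (log axis) for the 10138 tested genes, blue where the limma adjusted p is under 0.05 and grey elsewhere, with the 6 tested receptors in red and 6 genes beyond the y axis. P2ry10, Gpr174 and Gpr34 lie near -0.40 among the lower calls at 3 different levels, and Gpr132, Gpr65 and Lpar5 lie among the genes that did not pass.

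By level over all 6 libraries, Gpr65 was first with a mean of 75.2 FPKM, higher than 93.9% of listed genes. Gpr132 followed at 63.7 FPKM (92.5%), P2ry10 at 16.7 (75.3%), Gpr174 at 5.33 (57.7%) and Lpar5 at 3.55 (53.2%). Below them came Gpr34 at 0.838, Lpar2 at 0.662, Lpar6 at 0.375 and Gpr4 at 0.123 FPKM. Neighbours in this order were apart in both groups except for 3 pairs. Gpr65 and Gpr132 overlapped across vehicle libraries, Gpr174 and Lpar5 overlapped across LPC libraries, and so did Gpr34 and Lpar2.

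The summed level of the 9 receptors was 165 ± 16.3 FPKM with LPC and 168 ± 7.60 FPKM with vehicle (SD, n = 3 each). Lysophosphatidylserine receptors made up 10.8%, 12.7% and 11.7% of the sum in LPC replicates 1, 2 and 3 and 15.6%, 15.3% and 16.1% in vehicle replicates 1, 2 and 3, without overlap. Gpr65 and Gpr4 together made up 48.0% ± 0.300 with LPC and 42.5% ± 1.29 with vehicle, also without overlap. The share of Gpr132 was 37.4% ± 0.814 with LPC and 39.1% ± 0.896 with vehicle. These groups did not overlap, but narrowly, at 38.0% in LPC replicate 1 and 38.1% in vehicle replicate 2. That of the lysophosphatidic acid receptors was 2.82% ± 0.433 with LPC and 2.70% ± 0.127 with vehicle, with overlap. A share of a sum falls when another part of that sum rises, and these shares are descriptions with no test.

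**Figure D4:**
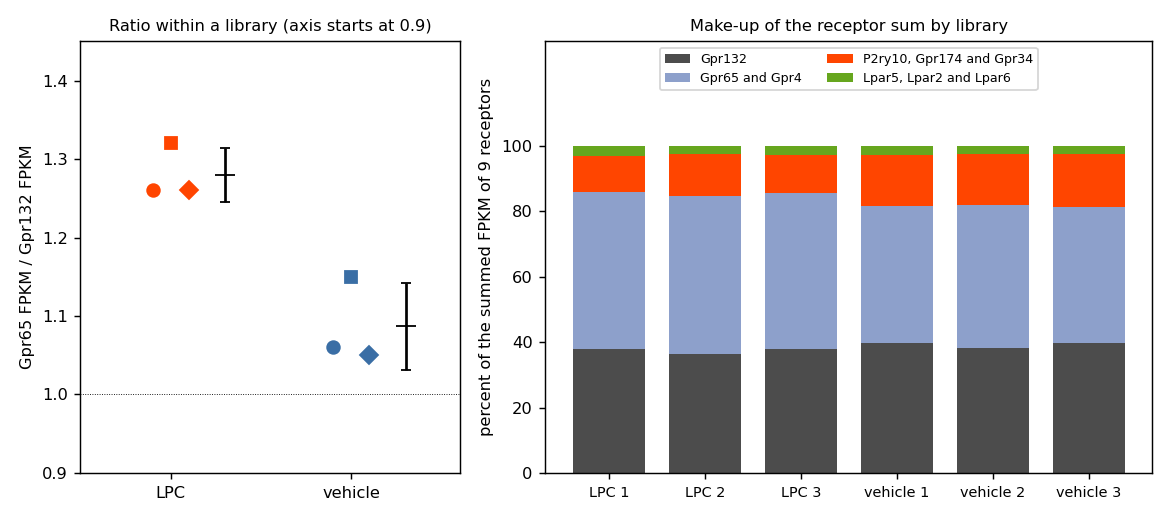
Left, FPKM of Gpr65 over FPKM of Gpr132 in each library (y axis from 0.9), LPC then vehicle, circle, square and diamond for replicates 1, 2 and 3, bars mean ± SD (n = 3). Right, percent of the summed FPKM of the 9 receptors by ligand class in each library, where lysophosphatidylserine receptors (red) take 10.8% to 12.7% with LPC and 15.3% to 16.1% with vehicle.

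Among 12 listed relatives for lysolipids and protons, 5 were tested, with a median log2 change of -0.27. Calls were 1 higher and 1 lower, against 5.82% higher and 7.91% lower of all tested genes. S1pr4, a sphingosine 1-phosphate receptor of lymphocytes, rose to 26.23, 21.27 and 24.41 FPKM in LPC replicates 1, 2 and 3, against 16.91, 16.97 and 17.57 FPKM in the vehicle replicates (log2 change 0.46, limma adjusted p = 0.00896). S1pr3 fell to 1.47, 1.5 and 1.2 FPKM in LPC replicates 1, 2 and 3, against 2.38, 2.86 and 2.92 FPKM in the vehicle replicates (-0.64, adjusted p = 0.00233). Neither receptor's groups overlapped, and both calls held in every fit that left out a library. S1pr1, which guides T cells out of lymphoid organs, was at 31.7 ± 3.76 FPKM with LPC and 38.4 ± 2.06 FPKM with vehicle (SD, n = 3 each). It did not pass (-0.27, limma adjusted p = 0.0824), nor did S1pr2 (-0.27, adjusted p = 0.0874). Both are named outside the rule for naming genes.

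Of 16 listed receptors of the purinergic branch to which P2ry10, Gpr174 and Gpr34 belong by sequence, 3 were tested. Their median log2 change was -0.11, with 1 higher and 1 lower, against 5.82% higher and 7.91% lower of all tested genes. Gpr171, a receptor of T cells for a neuropeptide, rose to 51.8 ± 4.47 FPKM with LPC, against 41.4 ± 1.12 FPKM with vehicle (SD, n = 3 each), a log2 change of 0.31 (limma adjusted p = 0.0353). It kept that call in 1 of 6 fits without a library, the one without LPC replicate 1, with adjusted p from 0.0523 to 0.144 without each of the others, and lost it with no filter on low values (0.074) and after quantile normalization (0.054). Gpr183, an oxysterol receptor that positions lymphocytes, fell to 31.0 ± 1.73 FPKM with LPC, against 38.5 ± 1.71 FPKM with vehicle (-0.30, adjusted p = 0.0347). That call was lost without LPC replicate 1 (0.0969) and without vehicle replicates 1, 2 and 3 (0.152, 0.155 and 0.0575), and with no filter (0.0606).

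Transcripts of the G proteins that these receptors use were present, and 1 of the tested subunit genes passed. Of 26 listed G protein subunit genes 17 were tested, with a median log2 change of -0.09. By limma 1 was higher and 0 lower, against 5.82% higher and 7.91% lower of all tested genes. At an unadjusted p under 0.05, 3 were lower (17.9% of all tested genes). Gnas, which encodes Gs alpha, was at 494 ± 9.70 FPKM with LPC and 542 ± 9.46 FPKM with vehicle (SD, n = 3 each), a log2 change of -0.13 (limma adjusted p = 0.348). Gnai2, the main Gi alpha of T cells, was at 319 ± 13.1 FPKM with LPC and 325 ± 9.26 FPKM with vehicle (-0.03, adjusted p = 0.864). Gna15, a Gq-class subunit of blood cells that couples to many receptors, was higher at 1.42 ± 0.171 FPKM with LPC and 0.653 ± 0.164 FPKM with vehicle (0.55, adjusted p = 0.00646), and it entered the test only through its LPC libraries. Gnas and Gnai2 were named after their values were seen.

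Of 36 listed effector genes downstream of the G proteins, among them those of cyclic AMP and phospholipase C, 25 were tested. By limma 0 were higher and 2 lower, against 5.82% higher and 7.91% lower of all tested genes. At an unadjusted p under 0.05, 0 were higher and 10 lower, against 12.2% higher and 17.9% lower of all tested genes, and the median log2 change was -0.19. Pde7a, which breaks down cyclic AMP and is known from T cell activation, fell to 23.8 ± 3.28 FPKM with LPC, against 32.9 ± 3.28 FPKM with vehicle (SD, n = 3 each), a log2 change of -0.46 (limma adjusted p = 0.0161). Its call was lost without LPC replicate 1 (0.0695), vehicle replicate 1 (0.0637) or vehicle replicate 2 (0.0738), and with no filter (0.0824). Rock1, a kinase that regulates the actin cytoskeleton, fell to 16.3 ± 1.87 FPKM with LPC, against 20.6 ± 0.955 FPKM with vehicle (-0.33, adjusted p = 0.0442). It held its call in 1 fit of 6, the one without LPC replicate 2, with adjusted p from 0.0747 to 0.182 without each of the others, and was not called with no filter (0.106) or with GC and length trends removed (0.0551). The count of lower calls in this list was 0 without LPC replicate 1, vehicle replicate 1 or vehicle replicate 2. It was 1 when LPC replicate 3 was left out and 5 when LPC replicate 2 was.

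Of 18 listed genes known to respond to cyclic AMP through CREB, 15 were tested, with a median log2 change of -0.33. In this list 1 was called higher and 7 lower, against 5.82% higher and 7.91% lower of all tested genes. Most of these genes also respond to T cell receptor signals. The nuclear receptor gene Nr4a3 fell to 46.3 ± 12.4 FPKM with LPC, against 88.4 ± 6.46 FPKM with vehicle (SD, n = 3 each), a log2 change of -0.95 (limma adjusted p = 0.00199). Nr4a1, a common reporter of T cell receptor signal strength, had a log2 change of -0.68 (adjusted p = 0.00171), the clock gene Per1 of -0.68 (0.00788) and the AP-1 subunit gene Fosl2 of -0.59 (0.00742). For each of these 4 genes the groups did not overlap and the call held in every fit that left out a library. With no filter on low values Nr4a1 kept its call, Nr4a3 (0.0507), Per1 (0.0792) and Fosl2 (0.0655) did not, and 1 gene of the list was called lower. Fos, Fosb and Gadd45b were the other 3 that fell, and Fosb reached the test only through its vehicle libraries. Leaving out LPC replicate 1 or vehicle replicate 1 gave 4 lower genes. In the fit without LPC replicate 1, Fos had an adjusted p of 0.0607, Fosb of 0.0507 and Gadd45b of 0.0589, and in the one without vehicle replicate 1 they had 0.0552, 0.0728 and 0.0862. Fos was also lost without vehicle replicate 2 (0.07), and Fosb in all 6 such fits (0.0507 to 0.141).

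Rgs2 was the member of that list that rose, and it also belongs to 18 listed genes that turn receptor signals off. Of these 18 genes 14 were tested, with a median log2 change of -0.04. Among them 1 was higher and 1 lower, against 5.82% higher and 7.91% lower of all tested genes. Rgs2, which shortens Gq signals, rose to 45.1 ± 4.64 FPKM with LPC, against 33.9 ± 1.90 FPKM with vehicle (SD, n = 3 each), a log2 change of 0.40 (limma adjusted p = 0.0157), a call lost without vehicle replicate 1 (0.0689) or vehicle replicate 3 (0.0553), and with no filter (0.0597). Rgs10 fell to 26.6 ± 3.85 FPKM with LPC, against 34.5 ± 1.34 FPKM with vehicle (-0.37, adjusted p = 0.032). Its call held in 1 fit of 6, the one without LPC replicate 3, with adjusted p from 0.0586 to 0.116 without each of the others. It was also lost after median centring (0.0968) and with no filter (0.101).

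Of 32 listed enzymes and transporters that make or remove the lysolipid ligands, 24 were tested, with a median log2 change of -0.02. Calls were 2 higher and 1 lower, against 5.82% higher and 7.91% lower of all tested genes. Enpp2 encodes autotaxin, which makes lysophosphatidic acid out of lysophosphatidylcholine. It rose to 2.4, 1.73 and 1.66 FPKM in LPC replicates 1, 2 and 3, against 0.58, 0.69 and 0.5 FPKM in the vehicle replicates (log2 change 0.87, limma adjusted p = 0.000675), and the call held without each library in turn. All vehicle libraries of Enpp2 were under 1 FPKM, so it entered the test through its LPC libraries. Abhd16a, which makes lysophosphatidylserine, rose to 12.1 ± 2.37 FPKM with LPC, against 7.76 ± 0.329 FPKM with vehicle (SD, n = 3 each; 0.56, adjusted p = 0.0118), a call lost without LPC replicate 1 (0.0672) and with no filter (0.0828). Abhd12, which degrades lysophosphatidylserine, was at 29.3 ± 1.71 FPKM with LPC and 27.3 ± 1.05 FPKM with vehicle (0.10, adjusted p = 0.477) and is named after its value was seen. Lipg, a phospholipase of the lipase family, fell to 0.997 ± 0.0493 FPKM with LPC, against 1.51 ± 0.24 FPKM with vehicle (-0.33, adjusted p = 0.0482). That call was lost in all 6 fits without a library (adjusted p from 0.0602 to 0.171), after quantile normalization (0.109), after median centring (0.0845), with GC and length trends removed (0.0817) and with no filter (0.087).

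Of 20 listed genes of acid export and pH control, 16 were tested, with a median log2 change of -0.03. Among these 2 were higher and 1 lower, against 5.82% higher and 7.91% lower of all tested genes. Slc16a3, a transporter that moves lactate out of the cell together with a proton, rose to 54.62, 36.86 and 48.79 FPKM in LPC replicates 1, 2 and 3, against 27.36, 28.42 and 26.0 FPKM in the vehicle replicates (log2 change 0.74, limma adjusted p = 0.00248). The groups did not overlap and the call held without each library in turn. Bsg, the partner protein that brings this transporter to the cell surface, rose to 309.79, 261.28 and 346.84 FPKM in LPC replicates 1, 2 and 3, against 244.12, 220.77 and 237.61 FPKM in the vehicle replicates (0.38, adjusted p = 0.0367). The Bsg call held in 1 fit of 6, the one without LPC replicate 2, with adjusted p from 0.0695 to 0.148 without each of the others, and was lost after median centring (0.0663) and with no filter (0.12). Slc9a9, a sodium-proton exchanger of endosomes, fell to 1.93 ± 0.425 FPKM with LPC, against 2.76 ± 0.182 FPKM with vehicle (-0.37, adjusted p = 0.0489). It too held in 1 fit of 6, the one without LPC replicate 2, with adjusted p from 0.0572 to 0.157 without each of the others, and was lost after quantile normalization (0.0792), median centring (0.0594), with a pseudocount of 0.1 (0.0549) and with no filter (0.15).

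For the 4 receptors with a mean of 5 FPKM or more, the genes most like them were those with the highest Pearson's r of log2(FPKM + 1) over the 6 libraries. These were Arel1 (r = 0.998) and Tnks (0.996) for Gpr132, Incenp (0.997) and Wdhd1 (0.994) for Gpr65, Zbtb25 (0.998) and Ddb2 (0.997) for Gpr174, and Mknk1 (0.999) and Chmp2b (0.997) for P2ry10. With 6 libraries in 2 groups such values are common, and 304, 46, 256 and 360 tested genes had an r above 0.95 with Gpr132, Gpr65, Gpr174 and P2ry10. They describe likeness in these libraries, which share the same grouping and depth.

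**Figure D5:**
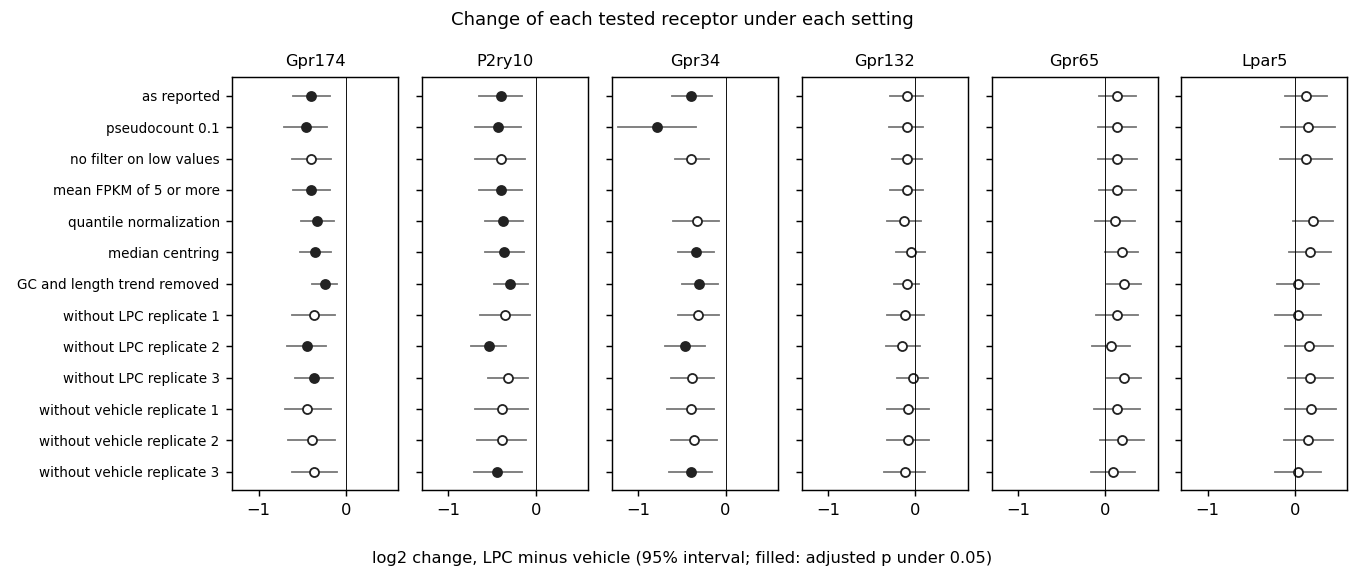
Log2 change of the 6 tested receptors, LPC minus vehicle (x axis), with 95% interval. Rows are the processing settings, except the replicate block, and the fits without each library in turn. Points are filled where the limma adjusted p is under 0.05 and absent where a filter removed the gene. P2ry10, Gpr174 and Gpr34 stay below 0 in every row but lose their call in 5 or 6 of them, and Gpr132, Gpr65 and Lpar5 pass in none.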

How the data were processed

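Sequencing of total RNA used a BGISEQ-500, and reads were aligned to GRCm38 with Bowtie2, per the labels' protocols. The authors deposited FPKM per gene from RSEM, per the labels' protocols, 1 file per library. The sources used here give no versions, settings or strandedness. FPKM is relative to each library's total, and RSEM divides reads shared by several genes by estimate. Depth is an estimate from the spacing of low FPKM values. They missed whole reads by 0.163 to 0.175 on average, and by 0.229 or more once lengths were shuffled.

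Groups came from the agent in the labels. Of the gene identifiers 99.3% matched the RefSeq table of GRCm38.p6, which gave coordinates and promoter windows, and 24 symbols turned into dates were restored. GENCODE M21 gave exons, transcript lengths and GC. The test was limma 3.58.1 in R 4.3.3 with a mean-variance trend and no covariate, on log2(FPKM + 1), with Benjamini-Hochberg adjustment over 10138 genes, tested on simulated data first. Alternatives were a pseudocount of 0.1, no filter, a mean FPKM of 5 or more, quantile normalization, median centring, removal of GC and length trends (natural splines, 4 degrees of freedom), the replicate number as a block, and each library left out. 1 tested relative is not reported here. By rule the text names all members, up to 4 called genes per list with the largest change, Rb1, and the 2 most similar genes of members with a mean of 5 FPKM or more. Outside this rule it names cell markers, genes that overlap or lie near members, S1pr1, S1pr2, Gnas, Gnai2, Abhd12, Fos, Fosb and Gadd45b. Members and lists were chosen with earlier results of these data known.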

Additional observations from a re-analysis of the deposited data

How the results depend on the processing

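The log2 changes of P2ry10, Gpr174 and Gpr34 stayed negative in every setting run, and those of Gpr132, Gpr65 and Lpar5 kept their sign and passed in none. The number of receptors called lower was 3 as reported and 0 with no filter on low values, and ranged from 0 to 3 when each library was left out. The 3 as reported include Gpr34, which entered the test only through its vehicle libraries. Leaving out LPC replicate 1, vehicle replicate 1 or vehicle replicate 2 gave 0, leaving out LPC replicate 3 gave 1, leaving out vehicle replicate 3 gave 2 and leaving out LPC replicate 2 gave 3. It was 2 after quantile normalization, where Gpr34 was lost, and 2 with a mean FPKM of 5 or more, which removes Gpr34. Calls over all genes numbered 1392, against 464 with no filter, where 16899 genes were tested, 2337 with GC and length trends removed, 2841 with the replicate block, and 513 to 2026 without a library. Leaving out vehicle replicate 1 gave 513 calls, vehicle replicate 2 gave 566 and LPC replicate 1 gave 702. Over the pathway lists 22 genes were called, against 7 with no filter, 42 with the replicate block and 10 to 29 without a library. The share of calls that were higher was 42.4%, against 53.1% with median centring, 51.1% with quantile normalization, 50.3% with GC and length trends removed and 50.9% with no filter. The cause of these differences was not tested, and a fit without a library also has less power.

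Same-numbered LPC and vehicle libraries had correlations of 0.018, 0.562 and 0.406 in their deviations from the group means. The correlation was -0.498 for LPC replicate 3 with vehicle replicate 2 and -0.447 for LPC replicate 2 with vehicle replicate 3. Vehicle replicate 1 was near 0 with every LPC library (-0.088 to 0.065). These values do not settle whether the numbers pair the samples, and the fit reported above took the libraries as unpaired. With the replicate block, 3 receptors were called lower and 0 higher, with limma adjusted p of 0.0031 for P2ry10, 0.00362 for Gpr174 and 0.0142 for Gpr34. The call of Gpr34 is no support here either, because it entered that fit only through its vehicle libraries. Gpr4, Lpar2 and Lpar6 were under the filter on low values and did not pass where it was left out.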
